A study of Rattus norvegicus with 13 samples.

Results

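MicroRNAs (miRNAs) best known from neurons, glia and the pigment lineage were followed through the fat of 13 adult female rats, as a set of 8 out of the 677 rat miRNAs on the array: rno-miR-338, rno-miR-204, rno-miR-211*, rno-miR-9, rno-miR-138, rno-miR-219-5p, rno-miR-129-1* and rno-miR-129-2* (rno- marks the rat and is dropped below). They were picked by name, as miRNAs of these lineages whose signal had been seen to vary widely between these same arrays. Their spread, their detection and their rise on shared arrays are therefore given as descriptions without a test, and the fathers' diet, which played no part in the choice, is tested. Of the 8, miR-338 and miR-204 were detected on at least 6 arrays and could be tested, and the other 6 were detected on 1 to 4 arrays. The 6 HFD animals were daughters of Sprague Dawley males on high-fat pellets (43% fat), and the 7 Control animals were daughters of males on standard chow (9% fat). Males were mated at 15 weeks with chow-fed females, daughters of both groups were weaned onto chow, and their fat was taken at 14 weeks. The sources used here name no fat depot, father or litter, so p-values refer to the spread over animals with sisters, if any, counted as unrelated. Each animal gave 1 Agilent array, named here by group and animal number, as in HFD 629.

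A miRNA is a short RNA that guides a silencing complex to messenger RNAs whose sequence pairs with its seed, the bases just behind its 5′ end, and lowers their output. In rodents, miR-338 and miR-219 are known for driving oligodendrocyte maturation, the step at which these glia start to make myelin, while miR-9 and miR-138 act in neural progenitors and in neurons, where miR-138 restrains the growth of dendritic spines. miR-204 and miR-211 lie within genes of TRPM channels and are known from retinal pigment epithelium, lens and melanocytes, and miR-204 has also been described, in mouse and human mesenchymal progenitor cells, to favour fat over bone formation. The mark * names the usually rarer strand of a precursor hairpin.

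All 8 names matched a mature rat miRNA in RefSeq (build GRCr8). The sequences shown are those whose probes rose clearly on some arrays, the near-identical miR-129 pair, and miR-211, the close relative of miR-204. Each is written 5′ to 3′ with the seed, bases 2 to 8, in capitals:
miR-338: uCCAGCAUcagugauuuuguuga
miR-204: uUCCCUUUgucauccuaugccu
miR-211: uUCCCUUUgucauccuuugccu
miR-9: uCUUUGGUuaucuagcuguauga
miR-138: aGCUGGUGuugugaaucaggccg
miR-129-1*: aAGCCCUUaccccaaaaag
miR-129-2*: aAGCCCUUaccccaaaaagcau
The 8 members carry 7 distinct seeds, since only the miR-129 pair shares one. All 19 bases of miR-129-1* match the first 19 of the 22 bases of miR-129-2*, so the array cannot be taken to tell this pair apart. miR-204 and miR-211 share a seed and differ by A17U, counted from the 5′ end with the base of miR-204 first. In GRCr8, miR-338 lies at chr10:105796345-105796367 on the minus strand, inside the protein-coding gene Aatk. miR-204 lies at chr1:229743493-229743514 on the plus strand inside Trpm3, and miR-211* at chr1:127189389-127189408 on the plus strand inside Trpm1. miR-9 has 3 loci and miR-138 has 2, all with the same mature sequence, so their probes sum over loci. Whether these stretches are intronic was not looked up, as the tables used here give gene bounds only.

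Levels are given in log2 units relative to the 75th percentile of the bright probes of the same array, with a floor at -5.67, and they serve to compare arrays for 1 miRNA, not miRNAs with one another, because each probe has its own brightness. The floor corresponded to 30.5 to 50.04 intensity units, depending on the array. Arrays detected 154 to 196 miRNAs, most of all on HFD 663 (196) and HFD 629 (189), and 0 spots were saturated. The arrays lay on 2 slides, slide 1 with 4 HFD and 4 Control arrays and slide 2 with 2 HFD and 3 Control arrays. Fat and mesenchyme markers (12 of 12) were detected on every array. In bulk tissue, more cells of a type and more of a miRNA per cell cannot be told apart.

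miR-338, the glial regulator within Aatk, was detected on 13 of 13 arrays and varied more than almost any other miRNA. In HFD fat its log2 level was 0.26 on HFD 629, -0.39 on HFD 663, -3.10 on HFD 660, -3.35 on HFD 619, -3.72 on HFD 624 and -4.44 on HFD 620. In Control fat it was 0.13 on Control 656, -1.07 on Control 622, -1.33 on Control 627, -2.003 on Control 662, -2.99 on Control 664, -3.16 on Control 631 and -4.49 on Control 658. HFD 629, HFD 663 and Control 656 were high, Control 622 and Control 627 stood next, and both groups reached from near the top to near the bottom of the order. Against the median of the 13 arrays, HFD 629 was 9.46-fold and HFD 663 6.05-fold higher, while Control 656 was 8.70-fold, Control 622 3.76-fold and Control 627 3.15-fold higher. The whole range was 4.75 log2 units, or 26.8-fold. The SD over arrays was 1.66, the third largest of the 176 tested miRNAs, whose median SD was 0.154. In that order the muscle miRNAs miR-133b (SD 3.101) and miR-1 (SD 3.08) stood above miR-338, miR-122 (SD 1.34) between miR-338 and miR-204, and the red cell miRNA miR-144 (SD 0.809) below miR-204.

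The probe pair of miR-338 gave the same profile over arrays, with r = 0.9998 between the probes, and replicate spots of the brighter probe had an SD of 0.026 to 0.15 log2 units. Ordered by level, 8 of the 12 neighbouring pairs of arrays differed by more than their summed spot SDs. The 4 pairs that did not were HFD 629 with Control 656, HFD 660 with Control 664, HFD 660 with Control 631, and HFD 620 with Control 658. The spot SD covers the spread within an array alone, not that of dissection, labelling or hybridisation, so these pairs are a description of the order. The brighter probe read 3151 intensity units on HFD 629 and 81.5 on HFD 620, its dimmest array before scaling.

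miR-204, the relative of miR-211 within Trpm3, was detected on 12 of 13 arrays. Its log2 level in HFD fat was -1.95 on HFD 663, -2.69 on HFD 629, -4.67 on HFD 624, -4.78 on HFD 619, -5.48 on HFD 660 and at the floor of -5.67 on HFD 620, where it was not detected. In Control fat it was -3.03 on Control 656, -3.30 on Control 622, -3.63 on Control 658, -4.08 on Control 662, -4.19 on Control 627, -4.83 on Control 664 and -4.94 on Control 631. HFD 663, HFD 629, Control 656 and Control 622 were the high arrays, as they were among the highest for miR-338. The HFD arrays held both the highest and the lowest levels, and all 7 Control levels lay between them. The high arrays stood 4.70-fold, 2.82-fold, 2.24-fold and 1.85-fold above the median array. The range of 3.71 log2 units, 13.1-fold, ends at the floor on HFD 620, and it came to 2.35 with normexp background correction, so its size depends on the treatment of weak signal. The SD of 1.12 was the fifth of 176. The probe pair followed each other (r = 0.988), spot SDs were 0.055 to 0.24, and 7 of 12 neighbouring pairs of arrays differed by more than their summed spot SDs, again a measure within arrays alone.

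**Figure D1:**
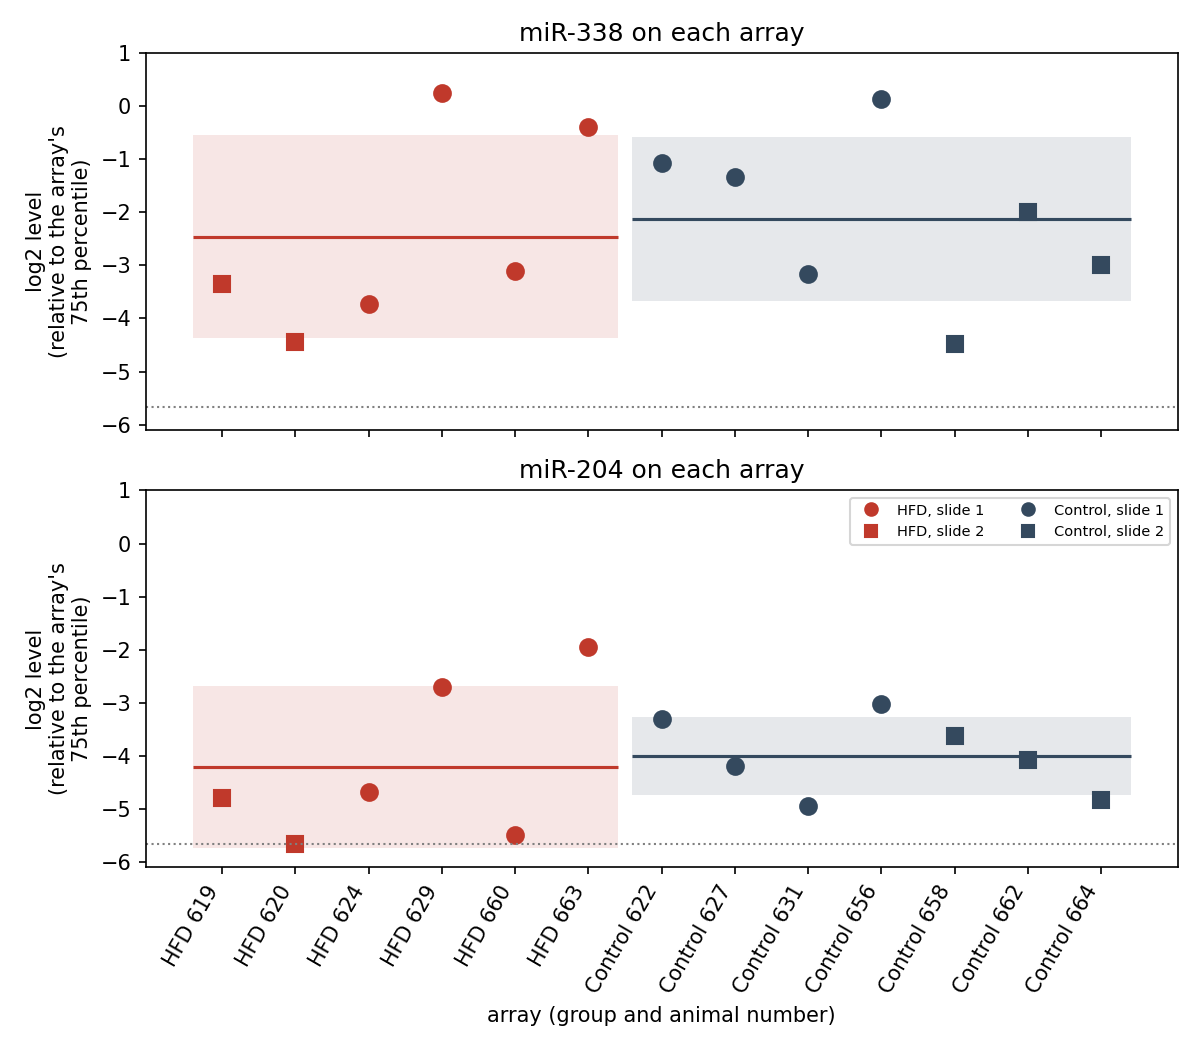
Log2 level of miR-338 (top) and miR-204 (bottom) on each array, HFD on the left and Control on the right, with circles for slide 1 and squares for slide 2; the line is the group mean, the band 1 SD either side, and the dotted line the floor at -5.67. HFD 629, HFD 663 and Control 656 are high for both miRNAs, and the groups overlap.

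On most arrays where miR-338 was high, miR-204 was high too. Over the 13 arrays their log2 levels had a Pearson r of 0.78 and a Spearman rho of 0.69, a description for which no test is given, because the set was chosen with these arrays in view and both miRNAs share each array's dissection, labelling and scaling. Without HFD 629 and Control 656, which lie farthest from the median of miR-338, r was 0.70 and rho 0.51 over 11 arrays. The array most at odds with the relation was Control 658, with the lowest miR-338 and the fifth highest miR-204. Without it, r was 0.92 and rho 0.85. Within slide 1, r was 0.88 and rho 0.83 over 8 arrays. The 5 arrays of slide 2 are too few for a coefficient. Of these, Control 658 went against the relation, with the lowest miR-338 (-4.49) and the highest miR-204 (-3.63) of that slide. Among the other 4 arrays of slide 2, HFD 620 was the lowest and Control 662 the highest for both.

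**Figure D2:**
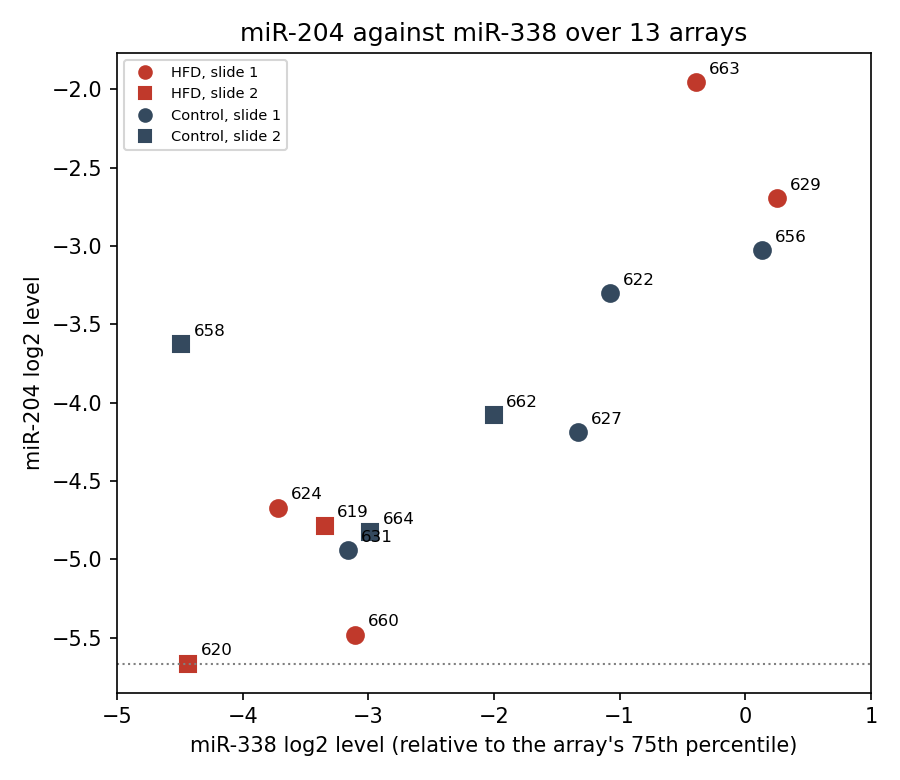
Log2 level of miR-204 (vertical) against miR-338 (horizontal) on the 13 arrays, red for HFD and dark blue for Control, each labelled with its animal number; the dotted line is the floor of miR-204. The points run from HFD 620 at the lower left to HFD 629 and HFD 663 at the upper right, with Control 658 off the trend (r = 0.78, rho = 0.69).

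The high arrays lay on slide 1. The lowest, median and highest log2 levels of miR-338 were -3.72, -1.20 and 0.26 on the 8 arrays of slide 1 and -4.49, -3.35 and -2.003 on the 5 arrays of slide 2. For miR-204 they were -5.48, -3.74 and -1.95 on slide 1 and -5.67, -4.78 and -3.63 on slide 2. The slides overlapped for both miRNAs, and the part of the slide in their levels was not tested.

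miR-9, a regulator of neural progenitors and neurons, was detected on 4 of 13 arrays by the rule used here, namely that at least 50% of the spots of a probe lie well above background. Its brighter probe read 107.7 intensity units on HFD 629 and 78.9 on HFD 663 in HFD fat, and 73.2 on Control 656 and 41.8 on Control 631 in Control fat. On the other arrays it was not well above background, at 6.87 to 15.3 in HFD fat and 11.7 to 35.1 in Control fat. The strong readings thus came from HFD 629, HFD 663 and Control 656, the arrays that led miR-338, and the groups overlapped. All 9 or 10 unflagged spots of the probe were well above background on each of these 3 arrays. The authors' own call per miRNA, the detection flag of Feature Extraction, held on 6 arrays, with Control 622 and Control 627 added. Those were the next 2 arrays in the order of miR-338.

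miR-9*, the other strand of the same precursors and no member of the set, followed it. It read 47.2 intensity units on HFD 629 and 36.6 on HFD 663, where it was detected, and 34.9 on Control 656, where 4 of 10 spots were well above background. On the remaining 10 arrays it read 1.37 to 19.1. Its 3 highest arrays were thus the same 3 as for miR-9.

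miR-138, known from neuronal synapses, was detected on 3 arrays. Its brighter probe read 81.3 intensity units on HFD 629 and 43.9 on HFD 663 in HFD fat, and 60.6 on Control 656 in Control fat, with every unflagged spot well above background. It read 6.81 to 9.80 on the other HFD arrays and 12.6 to 32.7 on the other Control arrays. The authors' call added Control 622 and Control 627 here too, for 5 arrays. The same 3 arrays therefore led miR-338, miR-9, miR-9* and miR-138, and they were the top 3 for miR-204.

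miR-219-5p, the partner of miR-338 in oligodendrocytes, did not vary widely. It read 22.0 to 40.04 intensity units over all arrays, a 1.82-fold span, and was at the floor on all 13. The lowest, median and highest readings were 22.0, 31.7 and 40.04 in HFD fat and 22.4, 33.4 and 37.6 in Control fat. Detection on HFD 629 and HFD 663, and on 0 Control arrays, came from readings that overlap those of arrays where it was not detected. The authors' call held on 10 arrays, 4 HFD and 6 Control.

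miR-211*, from the pigment cell gene Trpm1, was likewise close to flat. It read 26.6 to 42.3 intensity units, a 1.59-fold span, and was at the floor on 10 arrays. The lowest, median and highest readings were 30.6, 35.6 and 39.8 in HFD fat and 26.6, 29.9 and 42.3 in Control fat. It was detected on 4 HFD arrays (624, 629, 660 and 663) and on 0 Control arrays, but the highest reading of all, 42.3, was on Control 662, where 4 of 10 spots passed, whereas on HFD 663 a reading of 33.0 passed in 7 of 9 spots. HFD 624, HFD 629, HFD 660 and HFD 663 are also all the HFD arrays of slide 1. Detection on HFD arrays alone was common among the 30 miRNAs detected on 1 to 5 arrays, members or not. Detection on Control arrays alone was rare among them. With the authors' call, miR-211* was detected on 13 of 13 arrays. For miR-211* and miR-219-5p the values thus go against the description of the set as varying widely, and the arrays on which they were detected did not stand apart in intensity from the rest.

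miR-129-1* and miR-129-2*, from the minor strands of the brain-rich miR-129 precursors, were each detected on HFD 663 and on no other array. They read 39.97 and 37.5 intensity units there. On the other 12 arrays miR-129-1* read 2.55 to 22.4 and miR-129-2* read 3.88 to 16.6. In both cases 1 of the 2 probes carried the signal, and given their near-identical sequences these are not independent readings. miR-129 itself, the main strand, was not detected on any array.

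**Figure D3:**
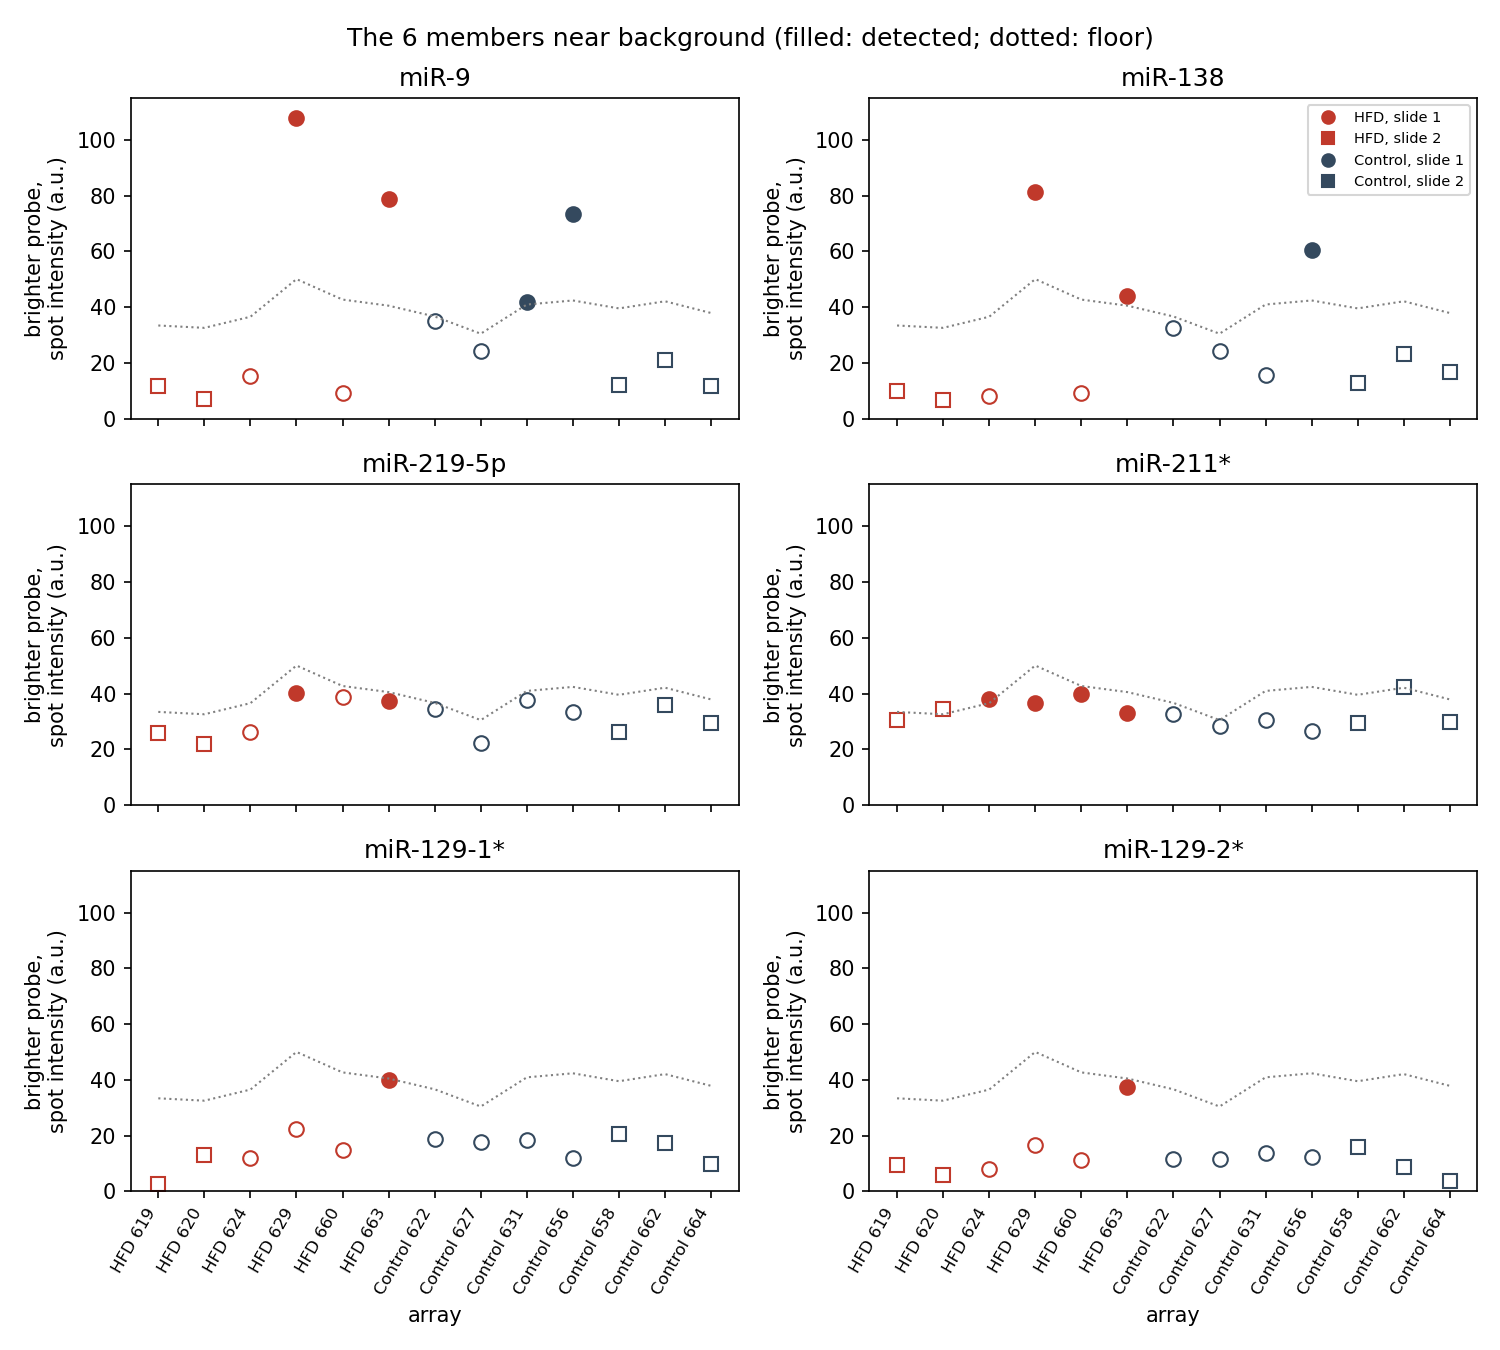
Mean spot intensity (linear scale, arbitrary units) of the brighter probe of the 6 members near background on each array, HFD left and Control right, with filled symbols where the miRNA was detected, circles for slide 1, squares for slide 2, and a dotted line at each array's floor. miR-9 and miR-138 stand above the floor on HFD 629, HFD 663 and Control 656, while miR-219-5p and miR-211* keep to 22.0 to 42.3 throughout.

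By array, HFD 663 detected 8 of the 8 members, HFD 629 detected 6, and the other HFD arrays 1 to 3. Control 656 detected 4, Control 631 detected 3 and the other Control arrays 2. Every detection of miR-9*, and of the 6 members other than miR-338 and miR-204, was on slide 1, with 0 on slide 2. This was not particular to the set. Among the 30 miRNAs detected on 1 to 5 arrays, many outside the set were likewise found on slide 1 alone, and others on slide 2 too. Slide 1 held more of the arrays, HFD 663 and HFD 629 among them. The part of the slide in this pattern was not tested. HFD 663 and HFD 629 were also the arrays with the most miRNAs detected in all, and HFD 663 alone detected 6 of the 12 miRNAs found on exactly 1 array, among them the miR-129 pair. Control 656 detected 174 miRNAs, as many as Control 631. The 75th percentile used for scaling ran from 1546 to 2540 intensity units, the highest on HFD 629. The part of array brightness and sensitivity in the detection of the weak members was not tested. Among the 9 other strands of the members' precursors, miR-9* was the one detected. The authors' call also held for miR-338* on HFD 629, HFD 663, Control 656 and Control 658, and for miR-211 on HFD 663.

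Most other neural markers were not detected. Of 19 brain and nerve miRNAs outside the set, 14 were never detected, and the defining neuronal miR-124 was at the floor on all 13 arrays, as were miR-137, miR-153 and miR-132. The 19 include other strands of the members' own precursors, namely miR-9*, miR-338*, miR-138-1*, miR-138-2*, miR-219-1-3p, miR-219-2-3p and miR-129. All of these strands except miR-9* are among the 14. The authors' call for miR-124 held on HFD 663 and Control 631. miR-128, miR-212, miR-218 and miR-7a, which non-neural tissues also express, were detected on every array. Of these, miR-218 had its 3 highest log2 levels on the same arrays as miR-338, at -3.18 on HFD 629, -3.29 on HFD 663 and -3.28 on Control 656, over a range that went down to -3.73 on Control 664. By contrast, miR-128, miR-212 and miR-7a did not have their highest levels on these arrays together. Both miR-212 (-0.83) and miR-7a (-4.95) were lowest on Control 656. For miR-128, HFD 629 (-4.60) was highest and Control 664 (-4.80) next, with Control 656 at -5.22. The fifth list member detected was miR-9*, on HFD 629 and HFD 663. The mean log2 level of the list, most of which was at the floor, was -5.22 to -5.15 in HFD fat and -5.22 to -5.16 in Control fat, with 4 or 5 members detected per HFD array and 4 per Control array. Of 5 retina and pigment miRNAs outside the set, among them the strands miR-204* and miR-211, 0 were detected on any array. But the authors' call held for miR-96 on HFD 629 and HFD 663, and for miR-211 on HFD 663. The label neural and glial describes where these miRNAs are known from, not a cell type shown in this fat. Which cells of the fat carried them was not tested.

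Muscle miRNAs marked a different group of arrays. miR-1 reached a log2 level of 2.74 on HFD 629, 2.50 on Control 662 and 1.94 on Control 664, but it was -4.54 on HFD 663 and -4.52 on Control 656. Of the 3 arrays that led the neural set, HFD 629 thus had high miR-1 and the other 2 had low miR-1, while miR-338 on Control 662 and Control 664 was -2.003 and -2.99. Without HFD 629, Control 662 and Control 664, r between miR-338 and miR-204 was 0.74 and rho 0.61 over 10 arrays.

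Among the 174 tested miRNAs outside the set, the order of arrays most like the mean of miR-338 and miR-204 was that of miR-345-5p, with a Spearman rho of 0.81 and a Pearson r of 0.80 over 13 arrays. It was also the most alike for miR-338 alone (rho 0.69) and for miR-204 alone (rho 0.86). Its highest log2 levels were -4.53 on HFD 629, -4.57 on HFD 663 and -4.46 on Control 656, and its lowest was -5.08 on Control 631. This is a much smaller range than that of miR-338, and it lies near the floor. The next were miR-301a (rho 0.74, r 0.69), miR-27b (0.64, 0.41), miR-23b (0.63, 0.33) and miR-218 (0.62, 0.78), a miRNA of motor neurons that is also made in other tissues. Both miR-27b and miR-23b were highest on Control 658, the array with the lowest miR-338. These correlations describe 13 arrays that share scaling and labelling, picked as the highest of 174, and have no test.

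The diet of the fathers was the comparison the study was designed for, and neither tested member passed the test against the spread between animals. miR-338 averaged -2.46 ± 1.92 in HFD fat and -2.13 ± 1.54 in Control fat (log2 level, SD, n = 6 and 7). The lowest, median and highest levels were -4.44, -3.23 and 0.26 in HFD fat and -4.49, -2.003 and 0.13 in Control fat, so the groups overlapped over nearly their whole range. The HFD minus Control difference was -0.33 ± 0.89 (SE, log2), 0.797-fold with a 95% interval of 0.209 to 3.04, and 4 of 6 HFD arrays lay below the Control mean. In limma p was 0.720 unadjusted and 0.983 adjusted, and an exact two-sided permutation test over all 1716 splits gave p = 0.734.

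miR-204 averaged -4.21 ± 1.53 in HFD fat and -4.00 ± 0.73 in Control fat (log2 level, SD, n = 6 and 7), with HFD 620 entered at the floor. The difference was -0.21 ± 0.60 (SE, log2), 0.865-fold with a 95% interval of 0.350 to 2.14, and 4 of 6 HFD arrays were below the Control mean. The adjusted p was 0.983 in limma, and the exact permutation p was 0.751. Both intervals are wide, as the SEs of 0.89 and 0.60 stand against a median SE of 0.085 over all tested miRNAs, so a difference of 2-fold in either direction lies inside both.

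Of the 2 tested members, limma called 0 at an adjusted p under 0.05, and 0 had an unadjusted p under 0.05. Over all 176 tested miRNAs, 0% were called, and 1.14% (2 miRNAs) had an unadjusted p under 0.05. The median difference was -0.27 for the 2 members and 0.0028 for all tested miRNAs. The 6 members under the detection filter were not tested, and no bounded fold between diets could be given for miR-211*, miR-219-5p or the miR-129 pair, because the bound came out under 1. miR-9 and miR-138 were detected in both groups, with medians of 13.4 intensity units in HFD fat and 24.1 in Control fat for miR-9, and of 9.45 in HFD fat and 23.1 in Control fat for miR-138, all under the floor of every array.

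The sign of either difference turned when certain single arrays were left out, and that of miR-204 also turned between slides. Within slide 1, miR-338 differed by -0.38 and within slide 2 by -0.73. miR-204 differed by 0.16 within slide 1 and by -1.05 within slide 2 (adjusted p = 0.445 in limma). With slide as a block the differences were -0.51 for miR-338 and -0.29 for miR-204, with adjusted p of 0.953 and 0.968 in limma. The test of the difference between slides gave adjusted p of 0.895 for miR-338 and 0.644 for miR-204, and limma called 0.568% of all tested miRNAs (1 of 176) there. Without HFD 620, the differences were 0.069 for miR-338 and 0.082 for miR-204. That of miR-338 was 0.051 without Control 656 and -0.87 without HFD 629, and that of miR-204 was 0.046 without HFD 660.

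**Figure D4:**
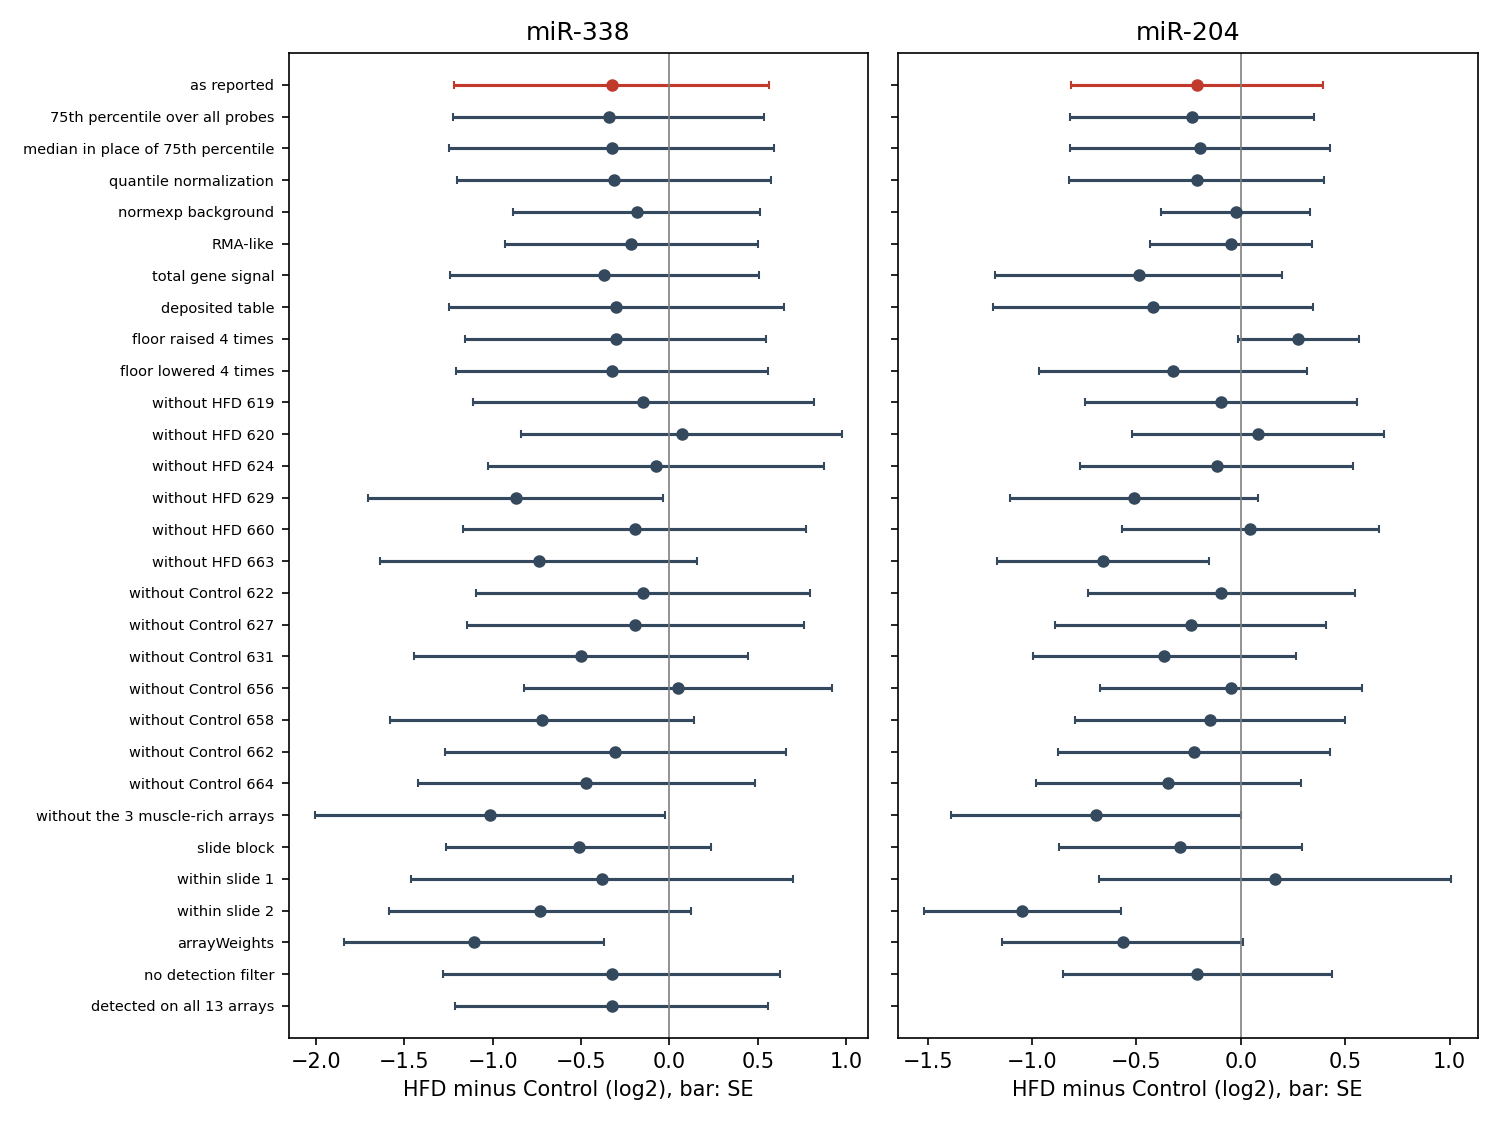
HFD minus Control difference in log2 level of miR-338 (left) and miR-204 (right) as reported (red) and under the alternatives named at the left (dark), with bars of 1 SE and a vertical line at 0; miR-204 has no value in the last line, which needs detection on all arrays. The estimates lie between -1.11 and 0.069 for miR-338 and between -1.05 and 0.27 for miR-204, with no adjusted p under 0.445 in limma.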

How the data were processed

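Per the labels, 100 ng of total RNA per animal was labelled with Cy3 and hybridised to 1-colour Agilent rat miRNA arrays, 6 HFD and 7 Control. Per the file headers, the authors used Feature Extraction 10.7.3.1 with a grid made for build rn4, and the spot values used are its background-subtracted intensity on a linear scale, with no normalization between arrays. The deposited value table holds log2 of the total gene signal, the intensity per miRNA, blank where not detected, as set against the scanner values (25 of 2569 values differed by more than 0.001). It served only as an alternative. RMA and Partek appear in the submitters' processing notes, with no step given for either.

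Control spots and outlier-flagged spots were left out (13540 spots of 1644 probes before the flags). The mean of a probe's spots was scaled to the 75th percentile, within each array, of the 260 probes that every array detected. Scaled values under 0.0197 were set to that floor before log2, and a miRNA's level is the mean of its probes. Detection needed 50% of a probe's spots well above background, and testing needed detection on 6 arrays. Groups were compared over 176 miRNAs with limma 3.58.1 (R 4.3.3, two-sided, Benjamini-Hochberg, threshold 0.05), and single members also by exact permutation (Python 3.11.15), whose smallest possible p is 0.000583. The limma step was also run on simulated levels with independent normal errors and no floor. Real levels can meet the floor and share each array's labelling, so that run does not vouch for the members' p-values. Spearman rho was computed with SciPy 1.17.1. The number of arrays limits the precision. The normexp alternative (offset 50) used the median spot signal with the median background signal.

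The members and the marker lists were chosen with earlier results of these data known. The miRNAs named are the members, the other strands of their precursors, the 5 tested miRNAs most alike in Spearman rho to the mean of the tested members and the most alike to each, and up to 4 of each marker list by level. miR-122, miR-144 and miR-133b were named after their values were seen, as neighbours in the order of SDs, and so were the undetected brain markers. Besides those of brain, retina, muscle and fat, the marker lists were epithelium (2 to 4 of 7 detected per array), red blood cells (2 or 3 of 3 on the array), white blood cells (5 of 5), endothelium (2 of 2), and liver, gut, kidney and pancreas (1 to 3 of 6).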

Additional observations from a re-analysis of the deposited data

Results flagged for a closer look

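In groups of 6 and 7 arrays, a single array can stand apart from the rest. Among the 10 member and group combinations checked, 4 did so by Dixon's criterion, which chance alone meets in about 5% of groups. That share is no yardstick here, since the members were chosen for varying between these arrays and all 4 lie where most arrays of the group sit at the floor, so the values are given as a description. miR-138 stood apart on HFD 629, at a log2 level of -5.32 with the nearest other HFD array at -5.61, and on Control 656, at -5.41 with the nearest Control array at -5.67. miR-9 stood apart on Control 656, at -5.10 with the nearest Control array at -5.65. miR-211* on Control 662, at -5.66 with an intensity of 42.3, lay just above the floor of -5.67. HFD 629 and Control 656 are also the 2 arrays with the highest miR-338.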

How the results depend on the processing

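No paired analysis was possible because each animal number occurs in 1 group alone, so the groups share no replicate numbers. In each alternative run, limma called 0 members and 0 of all tested miRNAs, with adjusted p of 0.678 to 1 for miR-338 over 29 alternatives and 0.445 to 1 for miR-204 over 28. The sign of the diet difference was not stable. For miR-338 it ran from -0.87 to 0.069 when single arrays were left out, and it was above 0 without HFD 620 (0.069) and without Control 656 (0.051). For miR-204 it ran from -0.66 to 0.082, and it was above 0 without HFD 620 (0.082), without HFD 660 (0.046), within slide 1 (0.16) and with the floor raised 4 times (0.27). With only miRNAs detected on all 13 arrays, miR-204 has no value, as it was not detected on HFD 620. By the authors' call, or if 1 spot sufficed, miR-204 was detected on 13 arrays, HFD 620 included. Detection of the weak members depended on the rule. miR-211* was detected on 10 arrays if 1 spot sufficed, on 0 if all spots had to pass and on 13 by the authors' call, and miR-219-5p on 9, 0 and 10. The authors' call gave miR-138 on 5 arrays, 1 spot gave miR-129-1* on 3, and all spots gave miR-129-2* on 0. The range of miR-204 was 2.35 with normexp background and 4.97 with total gene signal, where that of miR-338 ran from 3.79 to 4.64 over its 4 alternatives. Leaving out single arrays, r between miR-338 and miR-204 ran from 0.74 to 0.92 and rho from 0.60 to 0.85, with the highest of both without Control 658. The Spearman correlation was 0.51 without HFD 629 and Control 656 and 0.83 within slide 1. The 5 arrays of slide 2 were too few for a coefficient, and 1 of them, Control 658, went against the relation. Leaving out arrays and slide 1 for this relation, and normexp there, were added after seeing the data. The cause of these changes was not tested. Signal near background limits what can be said of the 6 weak members, whose levels at the floor have no order.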
